A study of Mus musculus with 7 samples.

Results

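The 8 genes described here encode subunits of voltage-gated sodium channels, the membrane proteins that open on depolarisation and let sodium in to start an action potential. They were taken by name from the 15967 gene rows of the series, and comprise 5 pore-forming alpha subunits (Scn1a, Scn3a, Scn4a, Scn7a and Scn10a) and 3 auxiliary beta subunits (Scn2b, Scn3b and Scn4b). All 8 had a value in both libraries. The set was chosen by gene name with the FPKM of both libraries and their log2 ratio, Scn4b's in particular, already known, so these values are a description and carry no test.

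Poly-A RNA was sequenced from the sinoatrial node (SAN, the pacemaker region of the heart) of Sv129 mice 3 weeks after birth. The control library came from Baf250af/f mice, which carry floxed alleles of Baf250a (gene symbol Arid1a, part of the BAF chromatin remodeller) and no Cre. The Cre library came from Baf250af/f;Hcn4CreERT2 mice. Both libraries are listed under day 6, which for the Cre library is 6 days after tamoxifen according to the labels. The floxed alleles are common to both groups. CreERT2 is a recombinase that tamoxifen switches on, and here it is driven from Hcn4, a pacemaker channel gene, so recombination is directed to Hcn4-expressing cells within a tissue of many cell types. How many mice went into a library, and whether control mice received tamoxifen, is not given in the sources used here. With 1 library per genotype no difference has a replicate check. Another 5 libraries, all from Baf250af/f;Hcn4CreERT2 mice, form a time course of 16, 20, 24 and 48 h with its own control, and were not used here.

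A sodium channel consists of a large alpha subunit that forms the pore and can conduct alone, and smaller beta subunits that pass the membrane once. Beta subunits carry an immunoglobulin-like domain outside the cell, shift the voltage dependence and kinetics of the pore and take part in cell adhesion. In the heart the fast sodium current drives conduction through atrial and ventricular muscle, whereas the centre of the sinoatrial node fires mainly on calcium current and has little of it. Several alpha subunits are better known from nerve or skeletal muscle, and the tissue around the node is rich in autonomic nerves.

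Values are FPKM (fragments per kilobase of transcript, scaled to the mapped total), a level per transcript length, so genes can be set side by side. Low values of the table, multiplied by transcript length, clustered on whole multiples of 1 step, from which the number of reads behind each value was estimated. The step corresponded to a nominal depth of about 55300000 reads for the control. For the Cre library it corresponded to about 67100000 reads. Read numbers below are estimates from that step, and each 95% interval is an exact Poisson or binomial interval that covers counting error only, not the difference between animals. Arid1a itself measured 34.9 FPKM without Cre and 12.3 with it. The node markers Hcn4, Isl1, Shox2 and Tbx3 were low in both, between 0.605 and 1.69 FPKM in the control and between 0.719 and 2.59 FPKM in the Cre library. Xist had 0.379 and 93.2 FPKM, so the libraries also differ in the sex of the animals, which cannot be told apart from genotype. T cell and thymus genes were present in the control library and nearly absent from the Cre library, as set out below.

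Scn2b and Scn4b lie side by side on chromosome 9 and were both lower in the Cre library, while Scn7a had most of the summed level of the 5 alpha subunits described here. The 250 bases before the start site of these 3 genes are therefore shown, from RefSeq on GRCm38.p6, with each CG dinucleotide in capitals. They cover chr9:45138374-45138623 on the plus strand for Scn4b, chr9:45117626-45117875 on the plus strand for Scn2b and chr2:66784911-66785160 on the minus strand for Scn7a.
Scn4b: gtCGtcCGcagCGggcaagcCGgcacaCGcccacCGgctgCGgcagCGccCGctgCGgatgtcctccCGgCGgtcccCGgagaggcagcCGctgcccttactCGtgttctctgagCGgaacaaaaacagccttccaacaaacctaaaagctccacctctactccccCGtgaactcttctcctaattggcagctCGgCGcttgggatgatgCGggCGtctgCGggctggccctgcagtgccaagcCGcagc
Scn2b: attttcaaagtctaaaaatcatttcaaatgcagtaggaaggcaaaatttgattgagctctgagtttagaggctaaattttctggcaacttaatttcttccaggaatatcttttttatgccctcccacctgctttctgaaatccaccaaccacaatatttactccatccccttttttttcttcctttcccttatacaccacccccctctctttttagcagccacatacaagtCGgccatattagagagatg
Scn7a: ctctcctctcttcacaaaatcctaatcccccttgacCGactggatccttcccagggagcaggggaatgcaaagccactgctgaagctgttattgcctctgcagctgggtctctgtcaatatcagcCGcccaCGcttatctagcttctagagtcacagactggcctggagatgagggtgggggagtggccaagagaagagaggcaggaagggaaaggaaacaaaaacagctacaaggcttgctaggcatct

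The neighbours Scn4b and Scn2b have unlike promoters. The Scn4b window held 23 CG dinucleotides and 66.0% G and C. The Scn2b window held 1 CG and 38.4% G and C, and the Scn7a window 3 CG and 53.2%. Over 32851 RefSeq windows of the same length the median was 6 CG and 52.4%. Windows were at hand for 6 of the 8 members, the others being Scn3a and Scn3b. For Scn4a the bases just after the start site matched no reference transcript of that gene, so its window is uncertain. All 6 windows were searched on both strands for 6 motifs, chosen with the ratios known. The search found a GATA match (AGATAA) at base -116 of Scn7a and a RUNX match (TGTGGT) at base -103 of Scn2b, counted back from the start site. Both lie on the opposite strand, so the sequences shown read TTATCT and ACCACA there. No match was found in Scn1a, Scn4a, Scn10a or Scn4b. GATA matches occurred in 9.99% of all windows and RUNX matches in 14.0%. The other motifs were found in no member. The TATA box, searched as TATAAA, occurred in 12.4% of all windows. The NKX2-5 motif TNAAGTG occurred in 10.1% of them, and the T-box motif AGGTGT in 11.8%. The left part of the REST site, TTCAGCACC, occurred in 0.301%. The 2 matches lie in different genes, so none overlapped another.

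Scn7a was the most abundant member in both libraries. It encodes NaX, an atypical alpha subunit that is not opened by voltage in the usual way and is known as a sensor of extracellular sodium, with expression in glia, Schwann cells and muscle. Its level was 13.4 FPKM in the control, against 20.1 in the Cre library, from about 5433 and 9905 reads (chr2:66511482-66622967 of mm9). The Cre value was 1.50 times the control value, with a counting interval of 1.45 to 1.55. Scn7a made up 92.9% of the summed level of these 5 alpha subunits in the control and 92.7% in the Cre library, a share that was nearly the same in both.

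The other alpha subunits were all below 1 FPKM. Scn10a, the channel of pain-sensing neurons that is also linked to cardiac conduction, had 0.367 FPKM in the control, against 0.919 in the Cre library (about 130 and 395 reads, chr9:119517573-119628150). Scn3a, a channel of the embryonic and newborn nervous system, had 0.146 and 0.379 FPKM (about 69 and 217 reads, chr2:65295174-65405549). The ratios of FPKM were 2.50 (counting interval 2.05 to 3.08) for Scn10a and 2.60 (1.97 to 3.45) for Scn3a, the first wholly above 2 and the other just reaching below it. Scn4a, the channel of skeletal muscle, had 0.236 and 0.264 FPKM (about 86 and 117 reads, chr11:106179906-106210704). Its ratio of 1.12 had an interval of 0.842 to 1.50, so no difference was detectable at this depth.

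Scn1a went the other way. It encodes a main channel of neurons, in particular inhibitory ones, and is also found in peripheral neurons and heart. It had 0.275 FPKM in the control, against 0.0216 in the Cre library (about 123 and 12 reads, chr2:66108838-66278894). This was 12.7-fold lower, with a counting interval of 6.87 to 24.7. Scn3a, Scn1a and Scn7a lie within 1.33 Mb of each other on chromosome 2. Of these 3 members Scn1a alone had a lower FPKM in the Cre library. With 1 FPKM added to each value the same difference is a log2 ratio of -0.32, so this gene does not appear among those at least 2-fold lower on that scale.

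Among the beta subunits Scn4b was the most abundant in the control library and Scn3b in the Cre library. Scn4b, which promotes resurgent sodium current in neurons and modifies the channel in heart, had 3.65 FPKM in the control, against 0.172 in the Cre library (about 1005 and 58 reads, chr9:44947124-44962144). It was 21.2-fold lower, with a counting interval of 16.1 to 27.9. Scn2b, which is joined to the alpha subunit by a disulphide bond as Scn4b is, had 1.20 and 0.111 FPKM (about 263 and 29 reads), 10.8-fold lower with an interval of 7.48 to 16.8. Its locus in the table, chr9:44887265-44943689, is shared with the rows of Amica1 and Gm10684, so these 3 genes can share reads and the value of Scn2b is uncertain. Scn3b, a beta subunit held to the pore without such a bond, had 1.45 and 3.49 FPKM (about 333 and 971 reads, chr9:40076800-40099203). It was 2.40 times as high in the Cre library, with an interval of 2.12 to 2.73.

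**Figure D1:**
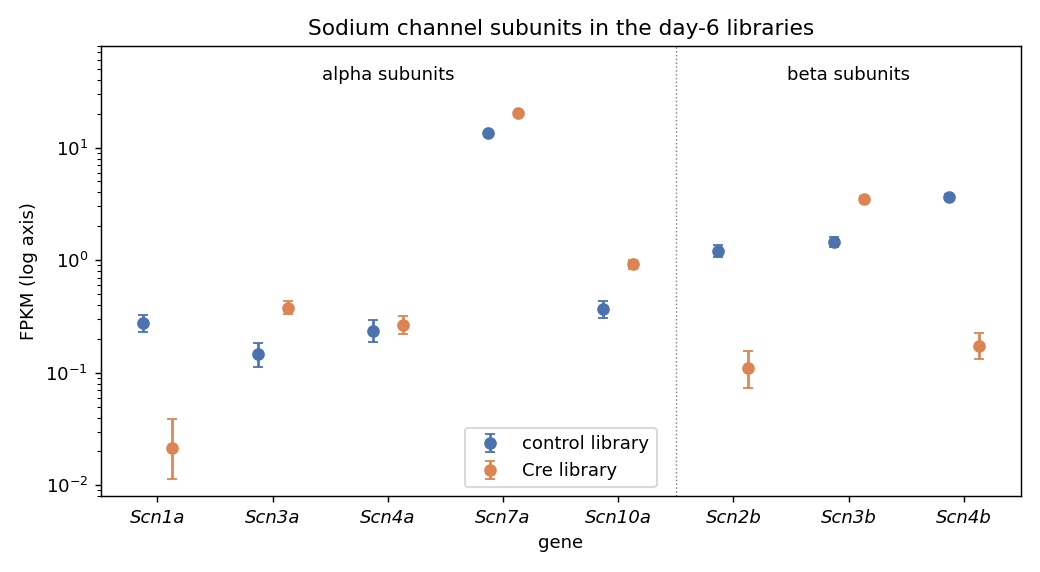
FPKM of each subunit on a log axis in the control and the Cre library (1 library each), with bars for the 95% counting interval. Scn7a stands above all others in both libraries, and Scn1a, Scn2b and Scn4b are 12.7-fold, 10.8-fold and 21.2-fold lower in the Cre library.

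The order of the levels changed accordingly. In the control library it ran Scn7a, Scn4b, Scn3b, Scn2b, Scn10a, Scn1a, Scn4a and Scn3a. The counting intervals of Scn3b and Scn2b overlapped there, as did those of Scn10a and Scn1a and those of Scn1a and Scn4a. In the Cre library the order was Scn7a, Scn3b, Scn10a, Scn3a, Scn4a, Scn4b, Scn2b and Scn1a, with overlap between Scn4a and Scn4b and between Scn4b and Scn2b. Scn4b thus went from the second place to the sixth, and Scn3a from the last to the fourth.

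Both groups held higher and lower members over a similar span, with log2 ratios of FPKM from -3.67 (Scn1a) to 1.38 (Scn3a) for alpha and from -4.41 (Scn4b) to 1.26 (Scn3b) for beta subunits. On FPKM their sums differed in direction. The sums were not recomputed with ratios centred on cell type lists, a scaling that moved the alpha median below 0, as given below. The summed level of the 5 alpha subunits was 14.4 FPKM in the control, against 21.7 in the Cre library, a ratio of 1.51 that was close to that of Scn7a. Without Scn7a the sums were 1.02 and 1.58 FPKM, a ratio of 1.55. The 3 beta subunits summed to 6.30 and 3.77 FPKM, 1.67-fold lower in the Cre library. Scn4b held 57.9% of this beta sum in the control and 4.57% in the Cre library, Scn2b 19.1% and 2.95%, and Scn3b 23.0% and 92.5%. These shares are over the 3 beta subunits described here.

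On the scale of log2 ratios of FPKM + 1 (a pseudocount of 1), the alpha subunits had a median of 0.27, from -0.32 for Scn1a to 0.55 for Scn7a. The beta subunits had a median of -0.99, from -1.99 for Scn4b to 0.87 for Scn3b, and the median over all 15965 genes was -0.02. The ratios above 0 depended on the scaling. With ratios centred on the fibroblast and endothelial lists the alpha median was -0.16, and with ratios centred on the contractile list all 8 members lay below 0, the highest being Scn3b at -0.04. At a size rule of 2-fold on this scale 1 of 8 members, Scn4b, was lower, beside 8.95% of all genes, and 0 were higher, beside 5.22%. Only 3 members, Scn7a, Scn3b and Scn4b, had a mean of at least 1 FPKM. Just outside the rule lay Scn2b at -0.99 and Scn3b at 0.87.

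The pseudocount decided how many members passed this rule, because most of them lie below 1 FPKM. On FPKM with no pseudocount, a scale added after the data had been seen, 3 of 8 members were at least 2-fold higher (Scn3a, Scn10a and Scn3b), beside 13.2% of all genes, and 3 of 8 were lower (Scn1a, Scn2b and Scn4b), beside 13.6%. Among the 2535 genes with a mean between 0.1 and 1 FPKM, the range of the weak members, 31.1% were higher and 17.5% lower. On that scale the log2 ratios were -3.67 for Scn1a, -3.43 for Scn2b and -4.41 for Scn4b. A ratio as low as that of Scn1a was found in 2.84% of those 2535 genes. In the authors' deposited table the p-value was 0.00385 for Scn4b and 0.0366 for Scn1a, with q-values of 0.186 and 0.677. None of the 8 members was called significant there, beside 0.564% of all genes, and that test compares 2 libraries and not the genotypes.

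**Figure D2:**
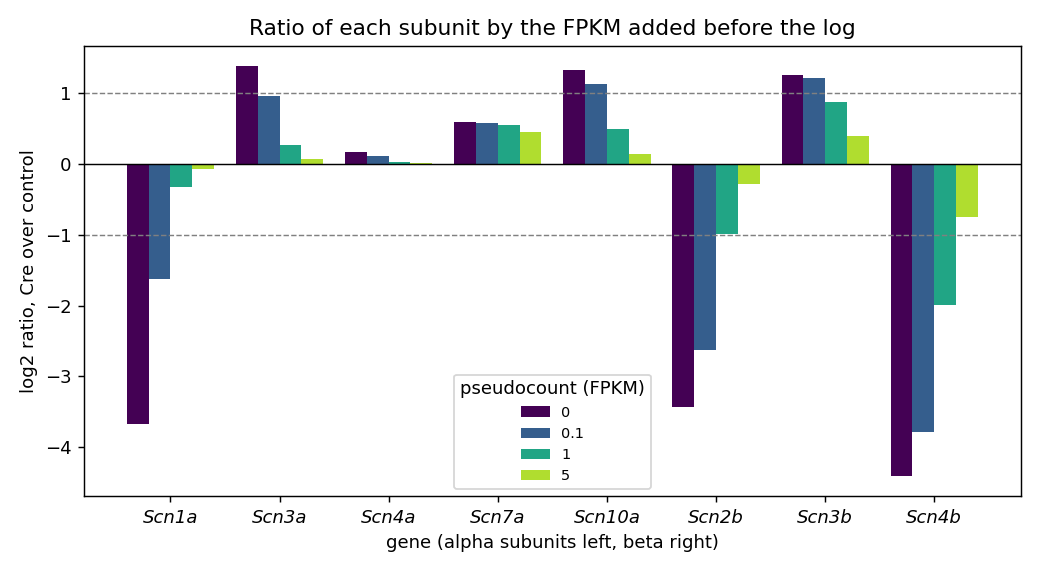
Log2 ratio of each subunit, Cre over control, with 0, 0.1, 1 or 5 FPKM added before the log. Dashed lines mark the 2-fold size rule, which Scn4b passes with 1 FPKM added and misses with 5 (-0.74), while Scn1a and Scn2b pass it only with 0 or 0.1.

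The lower members were set beside markers of the cell types that the dissected tissue can hold. Scn4b is known, as background, from heart and nervous tissue and also from developing T cells of the thymus. All 20 genes of a T cell and thymus list were at least 2-fold lower in the Cre library. Of all genes averaging 1 FPKM or more, 10.4% were. Together the 20 genes had 3682 FPKM in the control, against 18.5 in the Cre library. In the control library these 20 genes ranged from 9.88 to 436 FPKM, and in the Cre library 16 of 20 were below 1 FPKM. All 25 cell cycle genes were lower as well, with sums of 1369 and 136 FPKM. For T cell genes the Cre value was between 0.118% (Ptcra) and 2.01% (Thy1) of the control value, and for cell cycle genes between 2.51% (Top2a) and 28.9% (Tyms). It was 4.72% for Scn4b, 7.85% for Scn1a and 9.25% for Scn2b, from about 58, 12 and 29 reads in the Cre library. These shares cannot be assigned to a cell type, because a gene such as Scn4b is known from several. The part of these cells in the differences of Scn4b, Scn2b and Scn1a was not tested. In whole tissue, fewer cells of a type and less RNA per cell cannot be told apart.

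The genes around the pair were examined because of its position, after values had been seen. The loci of 15 genes, the pair included, reach within 200 kb of those of Scn2b and Scn4b. Of these 5 were at least 2-fold lower on FPKM + 1, Scn4b included, and 0 were higher, beside 8.95% and 5.22% of all genes. With no pseudocount 10 were lower, Scn2b and Scn4b included, and 2 higher, beside 13.6% and 13.2%. Scn2b, Amica1 and Gm10684 share 1 locus and are not independent counts. As the pair was chosen with its values known, these counts are a description only. Besides Scn4b the 5 genes lower on FPKM + 1 were Mll1, a histone methyltransferase, and Cd3g, Cd3d and Cd3e, the CD3 chains of the T cell receptor. Cd3g had 214 FPKM in the control, against 0.627 in the Cre library, Cd3d 113 and 0.303 FPKM, and Cd3e 113 and 0.239 FPKM. Between Cd3e and Scn2b lies Mpzl2, an adhesion protein of the same immunoglobulin superfamily, which had 9.34 and 9.89 FPKM. From there to Scn4b every gene in the table was lower: Mpzl3 had 3.42 and 1.24 FPKM, Amica1 1.02 and 0.285 FPKM and Gm10684 0.213 and 0.0542 FPKM. On the far side of Scn4b the protease gene Tmprss4 had 1.16 and 2.33 FPKM, and Il10ra, a cytokine receptor of immune cells, 3.67 and 1.64 FPKM.

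**Figure D3:**
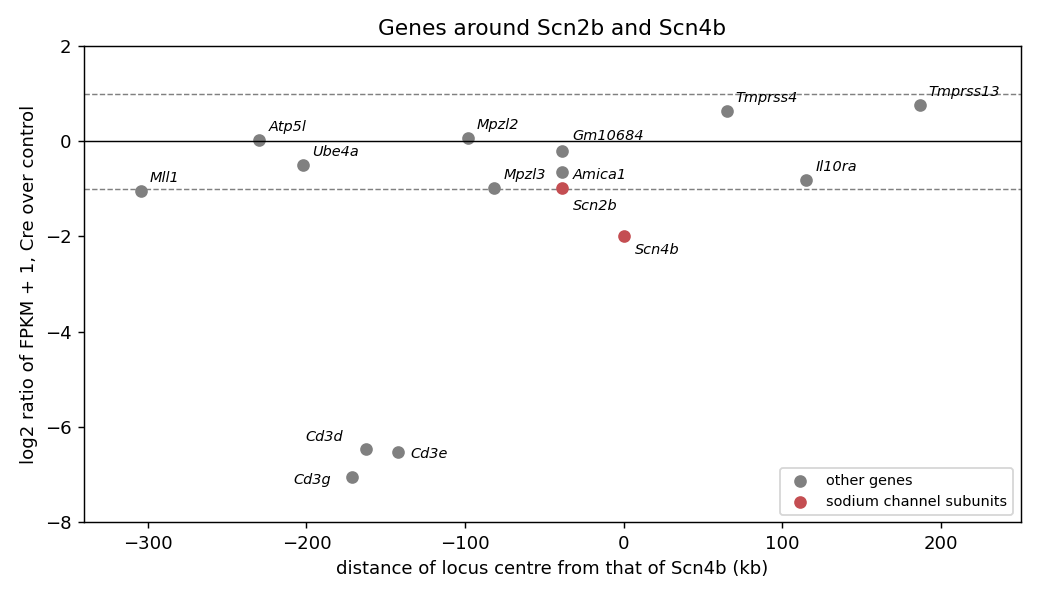
Log2 ratio of FPKM + 1, Cre over control, for 15 genes whose loci reach within 200 kb of those of Scn2b and Scn4b. The axis gives the distance of each locus centre from that of Scn4b in kb, which is -304 for Mll1. The 3 CD3 genes lie between -7.05 and -6.46, Scn4b at -1.99 and Scn2b at -0.99, and Mpzl2, between Cd3e and Scn2b, at 0.07.

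Genes whose pair of values was most like that of Scn4b were found by Euclidean distance in log2(FPKM + 1) over the 2 libraries, among 13403 genes. The nearest was Wisp3, a secreted matricellular protein, with 3.55 and 0.158 FPKM (distance 0.0367). Next came Ctse, the protease cathepsin E, with 3.83 and 0.162 FPKM (0.0571), and Ccr7, a chemokine receptor of lymphocytes and dendritic cells, with 3.82 and 0.143 FPKM (0.0632). For Scn7a the nearest were Mmp14, a membrane-bound matrix protease, with 13.3 and 19.9 FPKM, then Dock6 with 13.3 and 19.8 FPKM and Parvb with 13.4 and 20.5 FPKM. With 2 libraries such a likeness means no more than nearby values.

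The remaining alpha subunits were set beside nerve and muscle markers. Of 20 neuron genes present, 9 had a mean of at least 1 FPKM, and of these 3 were at least 2-fold higher and 0 lower, beside 6.08% higher and 10.4% lower among all genes at that level. Their median log2 ratio was 0.67, beside -0.07 for those genes, and it was 0.29 over all 20. The 3 higher genes were Npy, a peptide of sympathetic neurons, at 0.963 and 7.06 FPKM, Snap25, a protein of synaptic vesicle release, at 0.555 and 2.97 FPKM, and Stmn2, a growth cone protein, at 3.20 and 8.94 FPKM. Another 3 of the 9 lay below 0: Elavl4, a neuronal RNA-binding protein, had 1.62 and 0.475 FPKM, Tubb3, a neuronal tubulin, 3.91 and 3.44 FPKM, and Dbh, the enzyme that makes noradrenaline, 3.52 and 2.99 FPKM. These neuron genes thus lay on both sides of 0, with Tubb3 (log2 ratio -0.15) and Dbh (-0.18) only a little below it. All 5 sensory neuron markers in the table were below 1 FPKM in both libraries, and they summed to 1.87 and 1.52 FPKM. Schwann cell genes, set beside Scn7a, had a median of 0.52, with 1 of 11 higher and 1 lower, beside the same 6.08% and 10.4%. These were Erbb3, a neuregulin receptor of Schwann cells, at 2.08 and 7.06 FPKM, and Cnp, a myelin enzyme, at 42.9 and 11.5 FPKM. Of 5 skeletal muscle genes averaging 1 FPKM or more, 2 were higher and 1 lower, beside those same shares. Scn4a had nearly equal values. The fast troponins Tnni2 and Tnnt3 had 3.66 and 2.13 FPKM in the control, against 19.9 and 6.08 in the Cre library, and Mylpf, a fast myosin light chain, had 9.27 and 0.691 FPKM. The part of nerve, glial or muscle cells in the members' differences was not tested.

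A few genes that work with sodium channels were higher in the Cre library. The list of partners holds proteins that anchor, traffic or modify the channel, such as ankyrins, syntrophins and fibroblast growth factor homologous factors. Of 24 measured partners 4 were at least 2-fold higher and 0 lower, with a median of 0.54, beside 6.08% higher and 10.4% lower among genes averaging 1 FPKM or more, and the median was below 0 with ratios centred on the contractile list. Ptprz1, a receptor phosphatase that binds sodium channels, had 1.57 and 4.20 FPKM. Sntb1, a syntrophin that holds channels at the membrane, had 1.25 and 4.48 FPKM. Ank2 and Ank3, the ankyrins B and G, had 5.52 and 3.91 FPKM in the control, against 11.8 and 6.72 in the Cre library. Fgf14, an intracellular factor that binds the tail of alpha subunits, had 4.83 and 2.69 FPKM, and its relative Fgf12 had 29.1 and 41.5 FPKM.

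Genes that move sodium by other routes had a median of 1.05, with 7 of 13 higher and 0 lower. Scnn1a and Scnn1g, subunits of the epithelial sodium channel described below, are among these 7. Of all genes averaging 1 FPKM or more, the base for each list here, 6.08% were higher and 10.4% lower, with a median of -0.07. Slc8a1, which exchanges sodium for calcium, had 6.09 and 24.4 FPKM, and Slc4a4, a sodium bicarbonate cotransporter, 11.8 and 35.2 FPKM. Calcium, potassium and pacemaker channel genes of the cardiac action potential had a median of 0.81, with 7 of 20 higher and 0 lower. Kcne1, a potassium channel subunit, had 0.711 and 9.96 FPKM, Cacna1c, the L-type calcium channel, 2.93 and 11.7 FPKM, and Kcnj11, the pore of the ATP-sensitive potassium channel, 4.61 and 14.6 FPKM. The contractile list, which marks heart muscle, had a median of 0.91 with 12 of 25 higher. With ratios centred on that contractile median the medians were -0.37 for partners, 0.13 for sodium transport, -0.10 for the action potential list, -0.24 for neuron genes and -0.39 for Schwann cell genes. Lung and airway genes were higher as well, 10 of 11 at least 2-fold, with sums of 4203 and 18657 FPKM. The part of muscle or airway tissue in these differences was not tested.

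**Figure D4:**
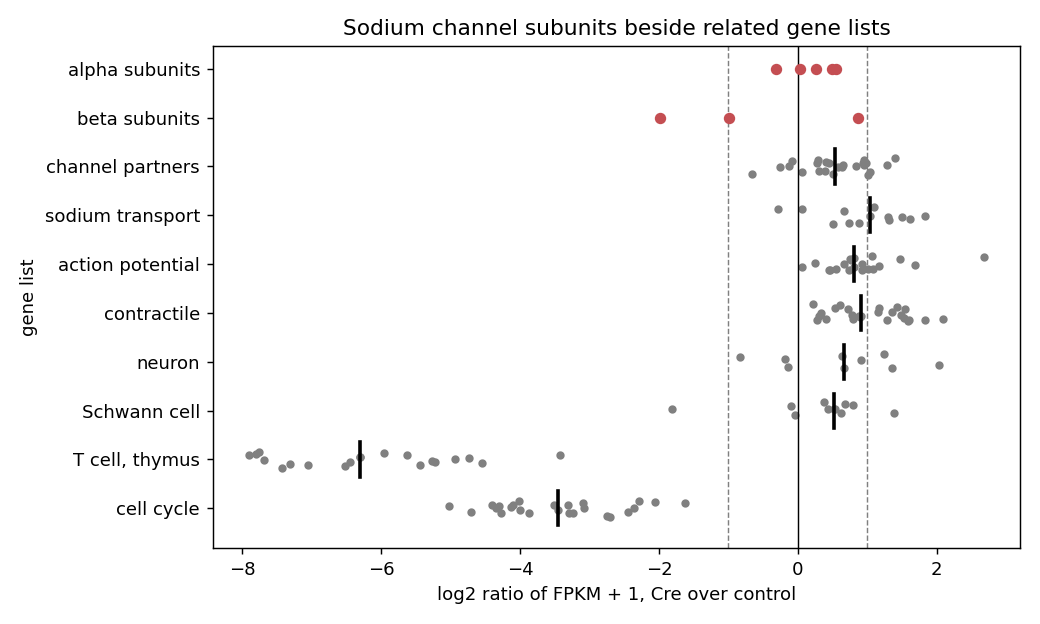
Log2 ratio of FPKM + 1, Cre over control, for the alpha and beta subunits (red) and for genes of related lists that average 1 FPKM or more (grey, with the median as a black bar and 2-fold marked by dashed lines). The alpha subunits lie between -0.32 and 0.55, and the beta subunits reach from -1.99 to 0.87.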

How the data were processed

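The series holds 7 libraries, and the 2 day-6 libraries (1 per genotype) were compared. Reads were processed with TopHat, Bowtie and Cufflinks on mm9, per the submitters' processing notes. The sources used here do not give their versions, the annotation, the strand setting or the scaling. The deposited table holds 1 value per gene and library, taken as FPKM from the Cufflinks column layout, per the file headers. Each row also carries a log2 fold change, a test statistic (a score), a p-value and a q-value, as deposited. Of 15967 rows 2 whose comparison was not completed were left out, as were 15 small RNAs where a mean of at least 1 FPKM was required. A further 3 rows of the gene family, and some genes of the related lists, are not reported here by name, though list counts include the latter.

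Since each genotype had 1 library, nothing was tested. Ratios of FPKM + 1 on the log2 scale were computed with Python 3.11.15 and pandas 2.3.3, and checked on simulated data. The members and gene lists were chosen with earlier results of these data known. Named genes are the members and Arid1a, in each list up to 3 genes of largest absolute log2 ratio, and the genes nearest to Scn4b and Scn7a, and others named were picked after their values were seen. Reads per value were estimated as FPKM times transcript length (GENCODE M21, found for 97.7% of genes by RefSeq accession) divided by the step of low values. With this step 45.7% of 232 low values in the control and 43.4% of 219 in the Cre library were whole within 0.02, against 2.55% and 2.73% for a typical step. The ratio of both steps, 0.824, was also the most frequent ratio of FPKM among weak genes. Lengths come from another build, so read numbers are approximate. Scaling by the authors would change the nominal depth but not the reads per gene. Alternatives were other pseudocounts, scalings, centrings and minimum levels.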

Additional observations from a re-analysis of the deposited data

How the results depend on the processing

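The number of members at least 2-fold higher, 0 with a pseudocount of 1, was 2 with a pseudocount of 0.1, 1 with upper quartiles made equal, 1 in TPM and 3 with no pseudocount. The number at least 2-fold lower, 1 with a pseudocount of 1, was 3 with a pseudocount of 0.1, 0 with 5, 2 in TPM, 2 with ratios centred on the fibroblast and endothelial lists, 3 with the contractile centring, 3 with no pseudocount and 0 at a minimum mean of 5 FPKM, which leaves Scn7a alone and no beta subunit. The median of the alpha subunits became -0.16 and -0.65 with these centrings. That of the beta subunits became -2.62 with a pseudocount of 0.1, -0.28 with 5, -1.90 with the contractile centring and -3.43 with no pseudocount, which was added after the data were seen. Scn4b was lower under all settings run, and with a pseudocount of 5 (-0.74), but with no other setting, its ratio missed the 2-fold rule. Equal upper quartiles moved the median ratio of all genes by 0.16, and the share of higher genes among those past 2-fold from 36.8% to 54.4%. The fibroblast and endothelial centring shifted that median by -0.42 and gave a share of 9.20%, and the contractile centring shifted it by -0.91 and gave 1.05%. A pseudocount of 5 gave a share of 22.8%, and no pseudocount 49.2%. Small pseudocounts enlarge ratios and large ones shrink them by construction, and each centring subtracts 1 fixed value from every ratio. TPM values are larger than FPKM here, so the pseudocount of 1 weighs less. The cause of the remaining shifts was not tested. Values of about 12 to 58 reads limit Scn1a, Scn2b and Scn4b in the Cre library.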

Other observations

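Neurofilament chains, which mark axons, differed in direction among themselves. Nefm and Nefh, the medium and heavy chains, had 1.21 and 0.752 FPKM in the control, against 0.208 and 0.179 in the Cre library. Nefl, the light chain, had 0.235 and 1.29 FPKM. Each of these chains averaged below 1 FPKM. Among all genes averaging 0.1 to 1 FPKM, 31.1% were at least 2-fold higher and 17.5% lower with no pseudocount. The cholinergic marker Chat had 0.0193 and 0.223 FPKM, the first being the lowest control value of the neuron list. No read numbers or counting intervals were computed for Chat or these chains. These genes were picked out after their values were seen.

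Epithelial sodium channel subunits, which form a separate channel not opened by voltage, were higher in the Cre library. Scnn1a had 7.77 FPKM in the control, against 20.5 in the Cre library, Scnn1b 0.526 and 1.82 FPKM, and Scnn1g 0.848 and 2.96 FPKM. The epithelium of lung and airway is known to use this channel. The lung and airway list had 10 of 11 measured genes higher, beside 6.08% of all genes averaging 1 FPKM or more. This list summed to 4203 and 18657 FPKM. The part of airway tissue in these values was not tested.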
